A study of Mus musculus with 20 samples.

Results

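Whole retina was compared with the photoreceptor layer of the mouse retina, to show which transcripts the undissected tissue holds beside those of its main cell layer. The comparison used 8 of the 20 arrays of the study, chosen by their titles. They were 4 arrays of whole retina and 4 arrays of the photoreceptor layer, which holds the outer nuclear layer with the inner and outer segments. The mice were adult C57BL/6 animals of 7 to 8 weeks, with no other allele or agent named in the labels. In each tissue 2 arrays came from mice light adapted for 6 h, where the light phase was at 450 lux. The other 2 came from mice dark adapted for 3 h in a chamber of at most 0.4 lux. The remaining 12 arrays held the inner nuclear, inner plexiform and ganglion cell layers, with 4 arrays each and the same split by adaptation. Retinal layers were cut out by laser capture, total RNA was amplified through a 2-cycle labelling protocol, and biotinylated cRNA was hybridised to Affymetrix arrays. The labels give no separate collection protocol for whole retina, so tissue and dissection cannot be told apart. They also do not tie arrays to animals, so a p-value here covers only how far the deposited arrays of a group lie apart, which can be technical.

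The retina is a layered tissue in which photoreceptors, most of them rods in the mouse, pass light signals to bipolar cells, which in turn drive ganglion cells. Horizontal and amacrine cells shape this flow sideways, and Müller glia span nearly the full depth of the tissue. Rods far outnumber the other cells, so their transcripts make up much of the RNA of an intact retina. In bulk samples of this kind, fewer cells of a type and less RNA per cell cannot be told apart.

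Levels are log2 of the array intensity, with intensities under 8 set to 8, so that the lowest possible level is 3. Differences are whole retina minus photoreceptor layer on the same scale, with light and dark adaptation weighted equally, and are given with the standard error of a limma fit over all 20 arrays. Median intensities per array were 37.5 to 40.8, and 15061 genes were tested. Where 4 values are given for a tissue, light-adapted replicates 1 and 2 come before dark-adapted replicates 1 and 2.

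Some arrays stood apart before any gene was tested. Replicate 2 of light-adapted whole retina had a median correlation with the arrays of other groups of 0.721, against 0.770 to 0.819 for the other whole retina arrays and 0.817 to 0.848 for the photoreceptor layer arrays. On the principal component that held 46.6% of the variance, the whole retina arrays lay at -40.3, -79.9, -53.7 and -61.5. The photoreceptor layer arrays lay at -7.9, -14.5, -14.3 and -18.7 on it, so the tissues did not overlap, and the part of this component in the differences was not tested. Replicate 1 of both light-adapted groups also carried Y-linked signal, with a median intensity over 30 Y-linked probe sets of 193.1 in whole retina and 243.4 in the photoreceptor layer, against 19.9 or less on the other 6 arrays. Xist, the noncoding RNA of the inactive X chromosome, was at intensities of 27.5 and 23.2 on these same arrays. On the other arrays Xist was at 675.9 to 809.2 in whole retina and at 117.3 to 210.9 in the photoreceptor layer. Among the inner layers, Y-linked signal was also present on replicate 1 of the light-adapted inner nuclear layer (231.9). Both light-adapted ganglion cell layer arrays carried it too (306.2 and 192.25). The fit without the arrays with Y-linked signal left out all of these arrays.

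The tissues differed in 1568 of the 15061 genes (10.4%) at an adjusted p under 0.05 (limma, Benjamini-Hochberg). Whole retina was higher in 1050 of them (6.97%) and lower in 518 (3.44%). Genes of bipolar cells, Müller glia and amacrine cells stood among those higher in whole retina. Of the rod phototransduction genes 2 of 19 passed and of the cone genes 2 of 11, all of them as lower. The median difference over all genes was -0.13, and that of the called genes in size was 0.885. In 989 of the genes called higher (6.57% of those tested) and 458 of the genes called lower (3.04%), the 4 arrays of whole retina did not overlap the 4 of the photoreceptor layer. Over all genes, called or not, whole retina lay wholly above the photoreceptor layer in 1887 (12.5%) and wholly below it in 2111 (14.0%). The counts rested on single arrays. Without replicate 2 of light-adapted whole retina 204 genes were called and without replicate 1 there were 2275. The median size of the difference of the 1568 genes was 0.771 without replicate 2 and 1.01 without replicate 1. Leaving out any of the other 6 arrays gave 405 to 669 genes.

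**Figure D1:**
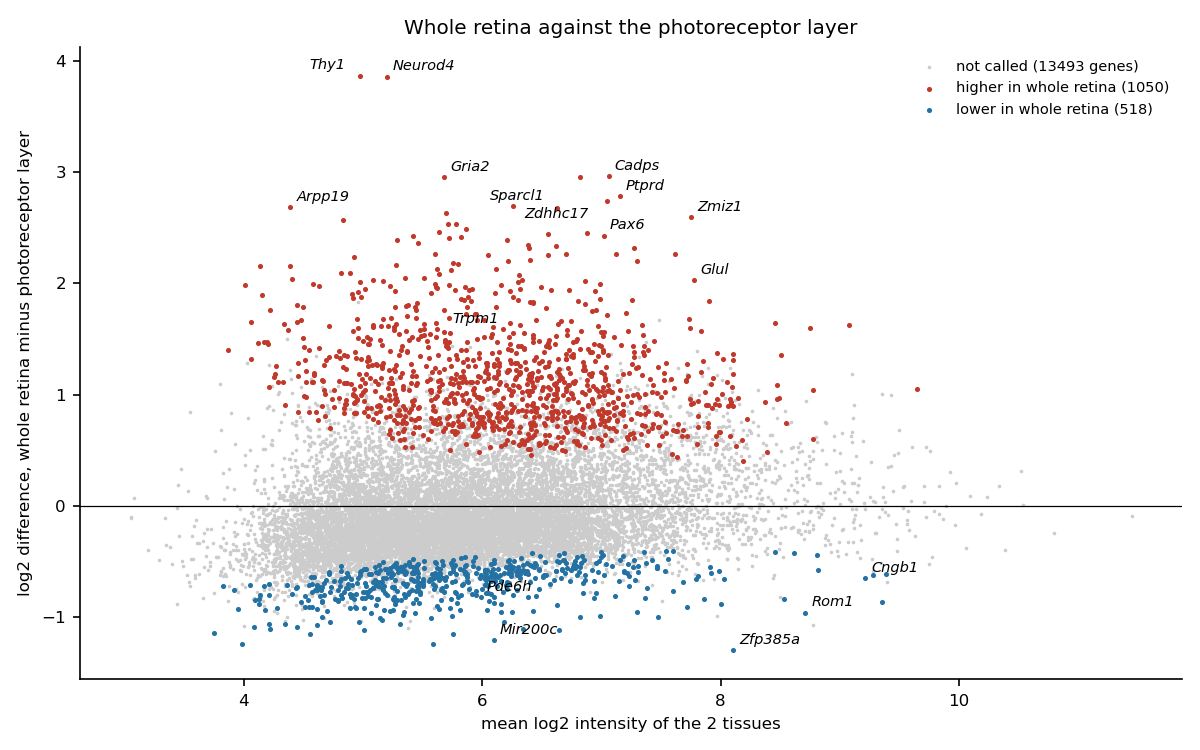
Difference between whole retina (WR) and photoreceptor layer (PR) for each of the 15061 genes on the log2 scale, against the mean level, with the 1050 genes called higher and the 518 called lower in colour. Thy1 and Neurod4 lie highest, at 3.87 and 3.86, and the lowest called gene, Zfp385a, lies at -1.30.

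Bipolar cells carry the photoreceptor signal to the inner retina. Of the 20 measured genes of the bipolar cell list, 12 rose in whole retina and none fell, beside 6.97% higher and 3.44% lower over all genes. The list's median difference was 0.79, beside -0.13 for all genes. Trpm1, the cation channel through which ON bipolar cells respond, was at 6.62, 6.83, 6.50 and 6.29 in whole retina, against 5.01, 4.64, 4.86 and 4.68 in the photoreceptor layer. The tissues did not overlap for it, and it rose by 1.76 ± 0.18 (adjusted p = 4.77e-05). The inner nuclear layer, which holds the bipolar cell bodies, averaged 6.49 for Trpm1, within the range of the whole retina arrays. Isl1, a transcription factor of ON bipolar, starburst amacrine and ganglion cells, was at 6.91, 7.83, 7.59 and 7.57 in whole retina, against 5.92, 5.59, 5.39 and 5.15 in the photoreceptor layer. Its difference was 1.96 ± 0.24 (adjusted p = 0.000329).

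Scgn, the calcium sensor secretagogin of cone bipolar cells, was at 5.13, 5.60, 5.30 and 5.38 in whole retina, against 3.64, 3.78, 3.47 and 3.29 in the photoreceptor layer. Prkca, the protein kinase by which rod bipolar cells are usually stained, was at 7.31, 8.16, 7.48 and 7.98 in whole retina, against 6.22, 6.35, 6.36 and 6.57 in the photoreceptor layer. Neither gene overlapped between the tissues, and they rose by 1.81 ± 0.32 and 1.36 ± 0.25. The ON bipolar glutamate receptor Grm6 rose by 0.77 ± 0.18 and the calcium-binding Cabp5 by 1.44 ± 0.34. Among transcription factors of the same cells the differences were -0.01 for Otx2, -0.16 for Vsx1 and -0.30 for Bhlhe23, none of which passed the test. The number of bipolar genes called was 6 to 12 when each of the 8 arrays was left out in turn, and it was lowest without replicate 2 of light-adapted whole retina. Trpm1, Isl1, Car8, Scgn and Prkca passed in every one of those fits.

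Müller glia support the neurons and clear glutamate. Their list had 12 of 21 genes higher in whole retina and none lower, beside 6.97% higher and 3.44% lower over all genes. The list's median difference was 0.76. Rlbp1, the retinaldehyde-binding protein of Müller glia and pigment epithelium, was at 7.46, 7.10, 7.60 and 7.54 in whole retina, against 5.69, 5.72, 5.74 and 5.42 in the photoreceptor layer. It rose by 1.78 ± 0.16 (adjusted p = 3.38e-05). Glul, the glutamine synthetase that converts glutamate, was at 8.59, 9.01, 8.74 and 8.81 in whole retina, against 6.82, 6.47, 6.82 and 6.94 in the photoreceptor layer. It rose by 2.03 ± 0.30, and neither gene overlapped between the tissues.

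The intermediate filament gene Vim was 1.79 ± 0.27 higher, the transporter gene Abca8a 2.42 ± 0.33 and clusterin (Clu) 1.57 ± 0.22. Spc25, which encodes a kinetochore protein and stood in this list as a Müller marker, was 2.69 ± 0.46 higher. The glutamate transporter Slc1a3 rose by 0.76 ± 0.20 and the copper-binding ceruloplasmin gene Cp by 1.86 ± 0.33. The water channel Aqp4 (0.53) and the potassium channel Kcnj10 (0.39) did not pass. The transcription factor Sox9 was at -0.24 and did not pass either. With each array left out in turn, 7 to 11 Müller genes were called, and Rlbp1, Abca8a, Clu, Glul, Vim and Spc25 passed each time.

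Amacrine cells are the interneurons of the inner plexiform layer. In their list 7 of 20 genes were higher in whole retina and 2 were lower, beside 6.97% higher and 3.44% lower over all genes. The list's median was 0.41. Pax6, a transcription factor of amacrine, horizontal and ganglion cells, was at 8.15, 8.62, 7.98 and 8.20 in whole retina, against 5.76, 5.43, 5.97 and 6.06 in the photoreceptor layer. It rose by 2.43 ± 0.27 (adjusted p = 0.000139) and did not overlap between tissues. Prox1, a transcription factor of horizontal, AII amacrine and bipolar cells, was at 6.42, 7.79, 6.74 and 7.50 in whole retina, against 5.18, 4.14, 5.04 and 4.14 in the photoreceptor layer. It rose by 2.49 ± 0.38.

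The calmodulin-binding Pcp4 was 1.60 ± 0.16 higher, the transcription factor Tfap2b 1.34 ± 0.25 and calretinin (Calb2) 1.98 ± 0.38. The glycine transporter Slc6a9 was 0.70 ± 0.18 higher. The enzymes that make GABA, Gad1 and Gad2, differed by 0.31 and 0.49 and did not pass. Gad1 was at 7.06, 7.29, 7.21 and 7.22 in whole retina, against 6.82, 7.09, 6.90 and 6.74 in the photoreceptor layer, and these ranges overlapped. Th, the dopamine-synthesis enzyme of a rare amacrine type, fell by 0.71 ± 0.21, and Nos1, the neuronal nitric oxide synthase, fell by 0.56 ± 0.17. Leaving out each array in turn gave 5 to 8 amacrine genes higher and 0 to 2 lower. Of the 8 horizontal cell genes 4 rose, beside 6.97% of all genes, with 1 to 4 when an array was left out. They were Prox1, Calb1 (calbindin), Septin4 and the tropomyosin gene Tpm3. The horizontal cell factors Onecut1 (0.06) and Lhx1 (0.05) did not pass.

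**Figure D2:**
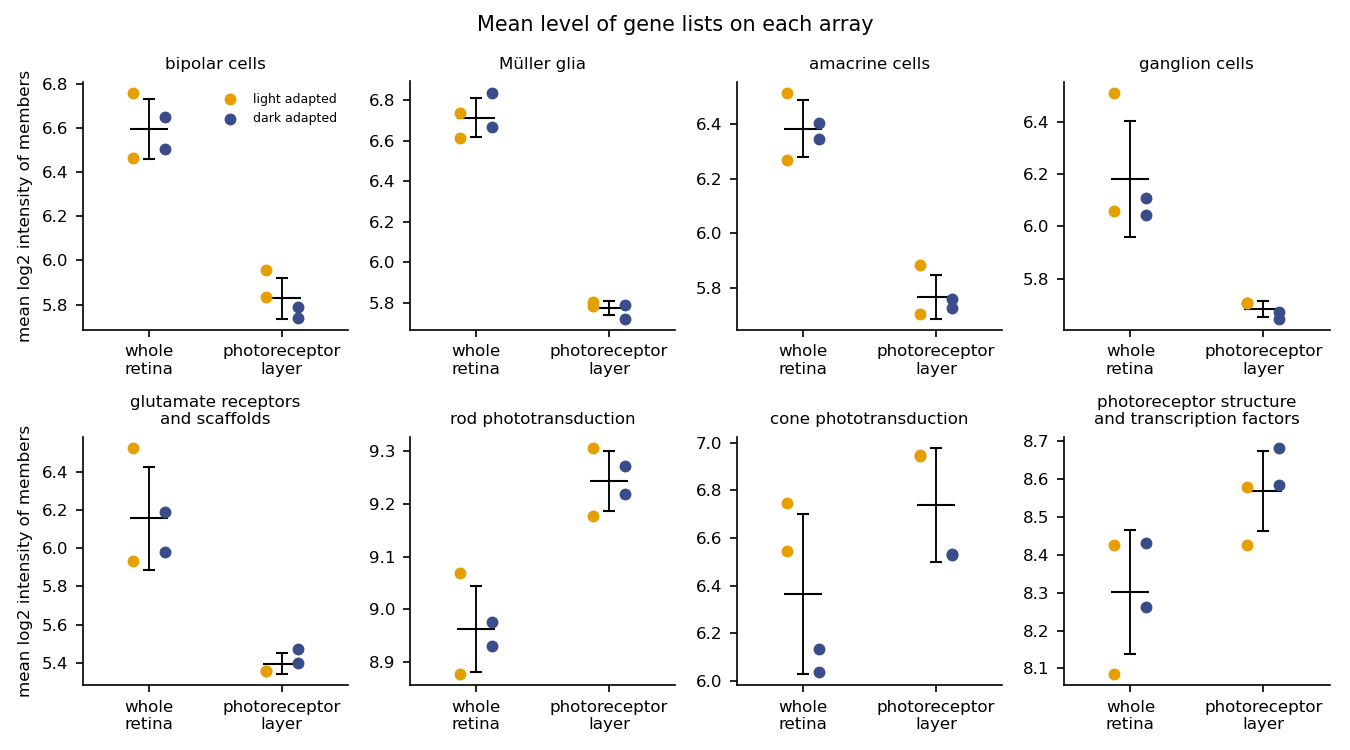
Mean log2 level of the members of selected gene lists on each array, in whole retina (WR) and the photoreceptor layer (PR). Points are arrays (orange for light, navy for dark adapted) and bars the mean ± SD of 4 arrays. Whole retina lies above the photoreceptor layer for bipolar, Müller and amacrine genes and below it for rod genes.

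Across the list, bipolar genes averaged 6.59 ± 0.14 in whole retina and 5.83 ± 0.09 in the photoreceptor layer (SD, n = 4 each). Müller genes averaged 6.71 ± 0.10 in whole retina and 5.77 ± 0.04 in the photoreceptor layer. The same averages for the inner nuclear layer were 6.61 ± 0.36 for bipolar and 6.56 ± 0.30 for Müller genes. Both means of whole retina thus lay near those of the layer that holds these cells' bodies, whose arrays lay further apart.

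Ganglion cells send the output of the retina to the brain. Of their 22 measured genes 4 were higher in whole retina and 1 was lower, beside 6.97% higher and 3.44% lower over all genes. The list's median was 0.38, and 0.21 without replicate 2 of light-adapted whole retina. Thy1, a surface glycoprotein that marks ganglion cells in the retina, was at 6.63, 7.05, 7.05 and 6.91 in whole retina, against 3.00, 3.00, 3.15 and 3.00 in the photoreceptor layer. It rose by 3.87 ± 0.15 (adjusted p = 1.12e-10), which is the largest difference of a called gene without overlap, and 3 of the 4 photoreceptor layer arrays were under the floor, so its size depends on the floor. In the ganglion cell layer Thy1 averaged 9.11, and in the inner nuclear layer all 4 arrays were at 3.00.

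The neurofilament gene Nefl was at 5.19, 7.23, 5.88 and 5.87 in whole retina, against 3.52, 4.10, 3.72 and 3.88 in the photoreceptor layer. Replicate 2 of light-adapted whole retina was the highest, and the difference of 2.23 ± 0.45 (adjusted p = 0.00857) was 1.72 without it (adjusted p = 0.0625). Sncg, gamma-synuclein, rose by 0.90 ± 0.23 and the microtubule regulator Stmn2 by 1.12 ± 0.26. Atoh7, a factor needed for ganglion cell genesis, fell by 0.52 ± 0.11. The vesicular glutamate transporter Slc17a6 (0.66), Rbpms (0.38) and the transcription factor Pou4f1 (-0.21) did not pass. Without replicate 2 of light-adapted whole retina 1 ganglion cell gene, Thy1, was called higher and none lower.

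Receptors that read the signals of the inner retina were also among the genes called. In the list of glutamate receptors and scaffolds 8 of 17 genes were higher in whole retina and none lower, beside 6.97% higher over all genes. The median was 0.33, and 0.30 to 0.55 with an array left out. Gria2, the AMPA receptor subunit that limits calcium entry, was at 6.21, 7.88, 7.16 and 7.40 in whole retina, against 3.75, 3.98, 4.31 and 4.76 in the photoreceptor layer. The tissues did not overlap and it rose by 2.96 ± 0.56 (adjusted p = 0.00537). Gria4 was 2.42 ± 0.47 higher, Gria3 1.51 ± 0.41 and Gria1 0.84 ± 0.26, so each of these AMPA receptor subunits was called. The kainate receptor subunit Grik1 was 1.49 ± 0.40 higher and the scaffold Dlg2 1.59 ± 0.34. The NMDA receptor subunits Grin2b (0.26) and Grin3a (-0.13) did not pass.

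Of 12 genes for GABA and glycine receptors and transporters 5 rose and none fell, beside 6.97% higher and 3.44% lower over all genes. Their median was 0.52. The glycine receptor subunit Glrb rose by 2.16 ± 0.41, its anchor gephyrin (Gphn) by 1.28 ± 0.29 and the GABA receptor subunit Gabrr1 by 1.32 ± 0.31. Without replicate 2 of light-adapted whole retina, 1 of the glutamate genes (Gria2, adjusted p = 0.0487) and none of the GABA and glycine genes passed. None of the 9 retinal neuropeptide genes passed, with a median of -0.28. Npy was at -0.49 and Sst at -0.21, and no member was called higher with any 1 of the 8 arrays left out.

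**Figure D3:**
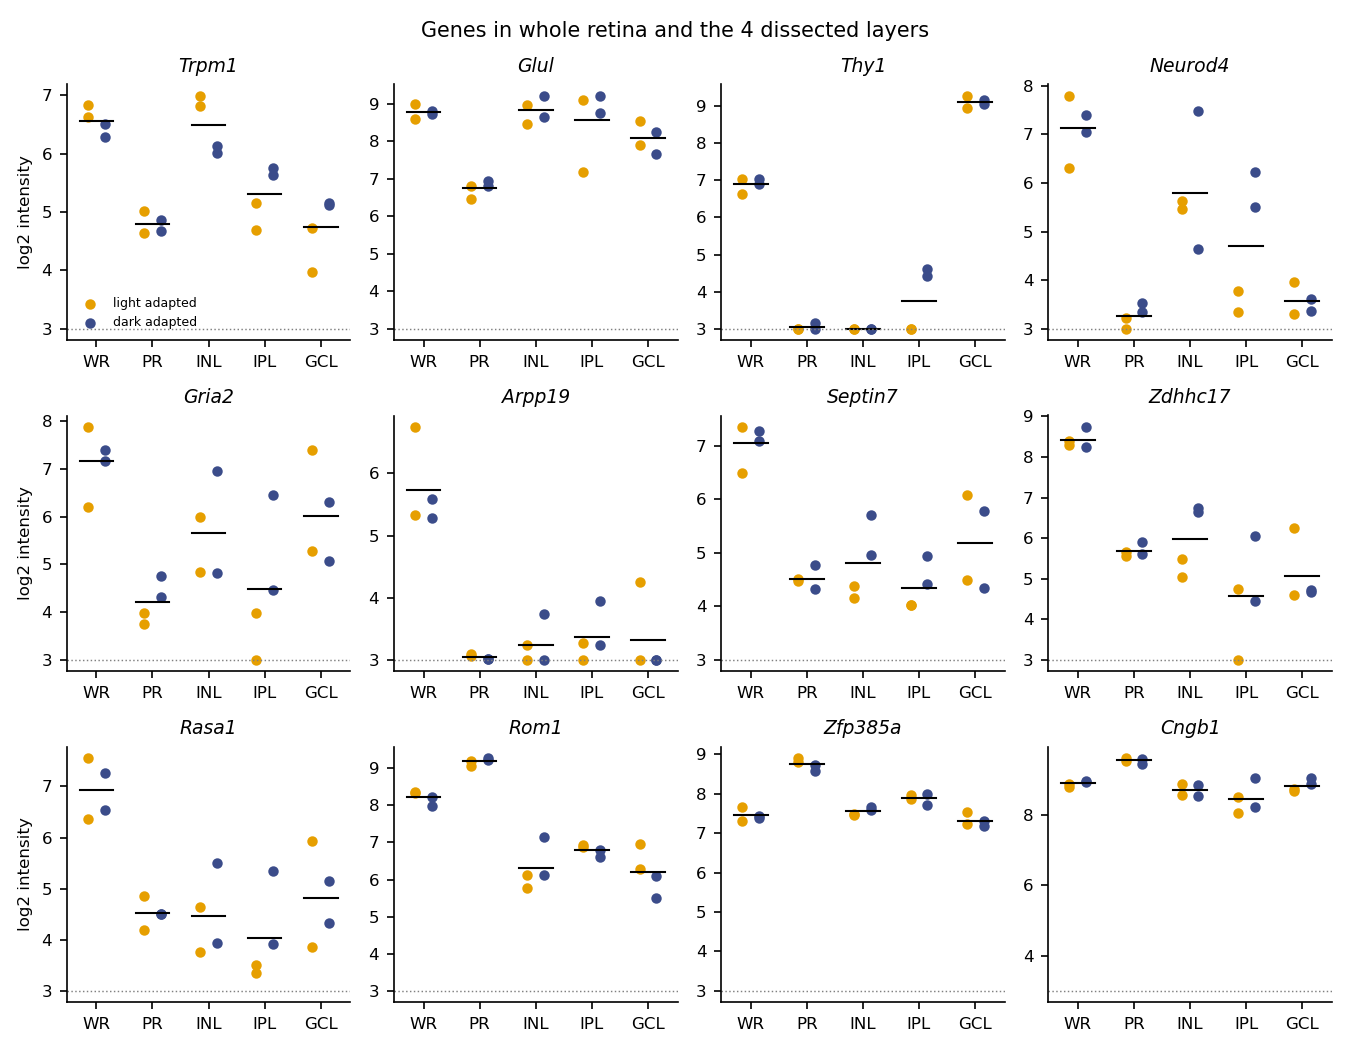
Log2 level of single genes on each array in whole retina (WR), the photoreceptor layer (PR), the inner nuclear layer (INL), the inner plexiform layer (IPL) and the ganglion cell layer (GCL), with means of 4 arrays as bars and the floor at 3 as a dotted line. Thy1 in the photoreceptor layer lies at the floor on 3 of 4 arrays, and Zfp385a is lower in whole retina than in the photoreceptor layer on all arrays.

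Rod genes make up the phototransduction machinery that both tissues share. Of 19 measured rod phototransduction genes 2 were lower in whole retina and none higher, beside 3.44% lower over all genes. Their median was -0.25, beside -0.13 for all genes. Cngb1, which modulates the cyclic nucleotide-gated channel of rods, was at 8.78, 8.88, 8.91 and 8.96 in whole retina, against 9.52, 9.60, 9.58 and 9.44 in the photoreceptor layer. It fell by 0.65 ± 0.17 (adjusted p = 0.0228). The exchanger gene Slc24a1, which removes calcium from rod outer segments, was at 8.94, 9.08, 9.21 and 9.11 in whole retina, against 9.57, 9.74, 9.82 and 9.66 in the photoreceptor layer. It fell by 0.61 ± 0.17, and neither gene overlapped between tissues.

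Rod transducin Gnat1 was at 10.57, 10.74, 10.65 and 10.73 in whole retina, against 10.78, 11.01, 10.87 and 11.00 in the photoreceptor layer. These ranges did not overlap, yet the difference of -0.24 ± 0.39 did not pass the test, whose spread is taken over all 20 arrays. The phosphodiesterase subunit Pde6b was at 9.63, 9.87, 9.68 and 9.70 in whole retina, against 9.65, 9.80, 9.65 and 9.66 in the photoreceptor layer, and overlapped. Over the whole list the mean level was 8.96 ± 0.08 in whole retina and 9.24 ± 0.06 in the photoreceptor layer (SD, n = 4 each). The same rod genes averaged 6.75 in the inner nuclear layer and 6.73 in the ganglion cell layer.

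Of 11 cone genes 2 fell and none rose, beside 3.44% lower over all genes. Their median was -0.35, and -0.54 without replicate 2 of light-adapted whole retina. They were the cone transducin subunit Gngt2, at -0.80 ± 0.18, and the cone phosphodiesterase subunit Pde6h, at -0.83 ± 0.21. Cone arrestin Arr3 was at 7.02, 6.98, 7.35 and 6.97 in whole retina, against 7.85, 7.54, 8.18 and 8.20 in the photoreceptor layer, and its difference of -0.86 ± 0.29 did not pass (adjusted p = 0.0653). The short-wavelength opsin Opn1sw was at 9.21 and 9.23 in light and at 3.00 and 3.00 in dark in whole retina, against 9.29 and 9.12 in light and 3.00 and 3.00 in dark in the photoreceptor layer. Its values split by adaptation in both tissues.

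Of 18 genes of photoreceptor structure and transcription factors 2 fell and none rose, beside the same 3.44%, with a median of -0.41. Rom1, which shapes the rim of outer segment discs, was at 8.35, 8.33, 7.98 and 8.23 in whole retina, against 9.07, 9.19, 9.23 and 9.27 in the photoreceptor layer. It fell by 0.96 ± 0.21 (adjusted p = 0.0114) without overlap, and the photoreceptor cadherin Cdhr1 fell by 0.84 ± 0.20. The photoreceptor transcription factors Crx (-0.65) and Nrl (0.17) did not pass. None of the calls in the rod, cone and structure lists was made without replicate 2 of light-adapted whole retina. Rom1 was then at -0.96 with an adjusted p of 0.0596.

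The photoreceptor meets other cells at its ribbon synapse and builds its outer segment on a cilium. In the ribbon synapse list 1 of 19 genes rose, the presynaptic scaffold Pclo by 1.24 ± 0.26, and 1 fell, the calcium-binding Cabp4 by 0.61 ± 0.19. The list's median was 0.04, and -0.04 to 0.14 with an array left out. In the primary cilium list 2 of 19 genes rose, with a median of 0.39. Over all genes 6.97% were higher and 3.44% lower, so the counts of both lists lay near the background. Both medians lay above the -0.13 of all genes, and in the cilium list 15 differences were positive and 4 negative. Cep290, a protein of the ciliary gate, was at 6.97, 7.85, 7.62 and 7.45 in whole retina, against 6.18, 6.04, 6.62 and 6.16 in the photoreceptor layer, and rose by 1.22 ± 0.27. Rpgr, a regulator of ciliary traffic, rose by 1.40 ± 0.39. Both cilium genes averaged 4.30 or less in the inner nuclear, inner plexiform and ganglion cell layers. Neither they nor Pclo passed without replicate 2 of light-adapted whole retina.

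**Figure D4:**
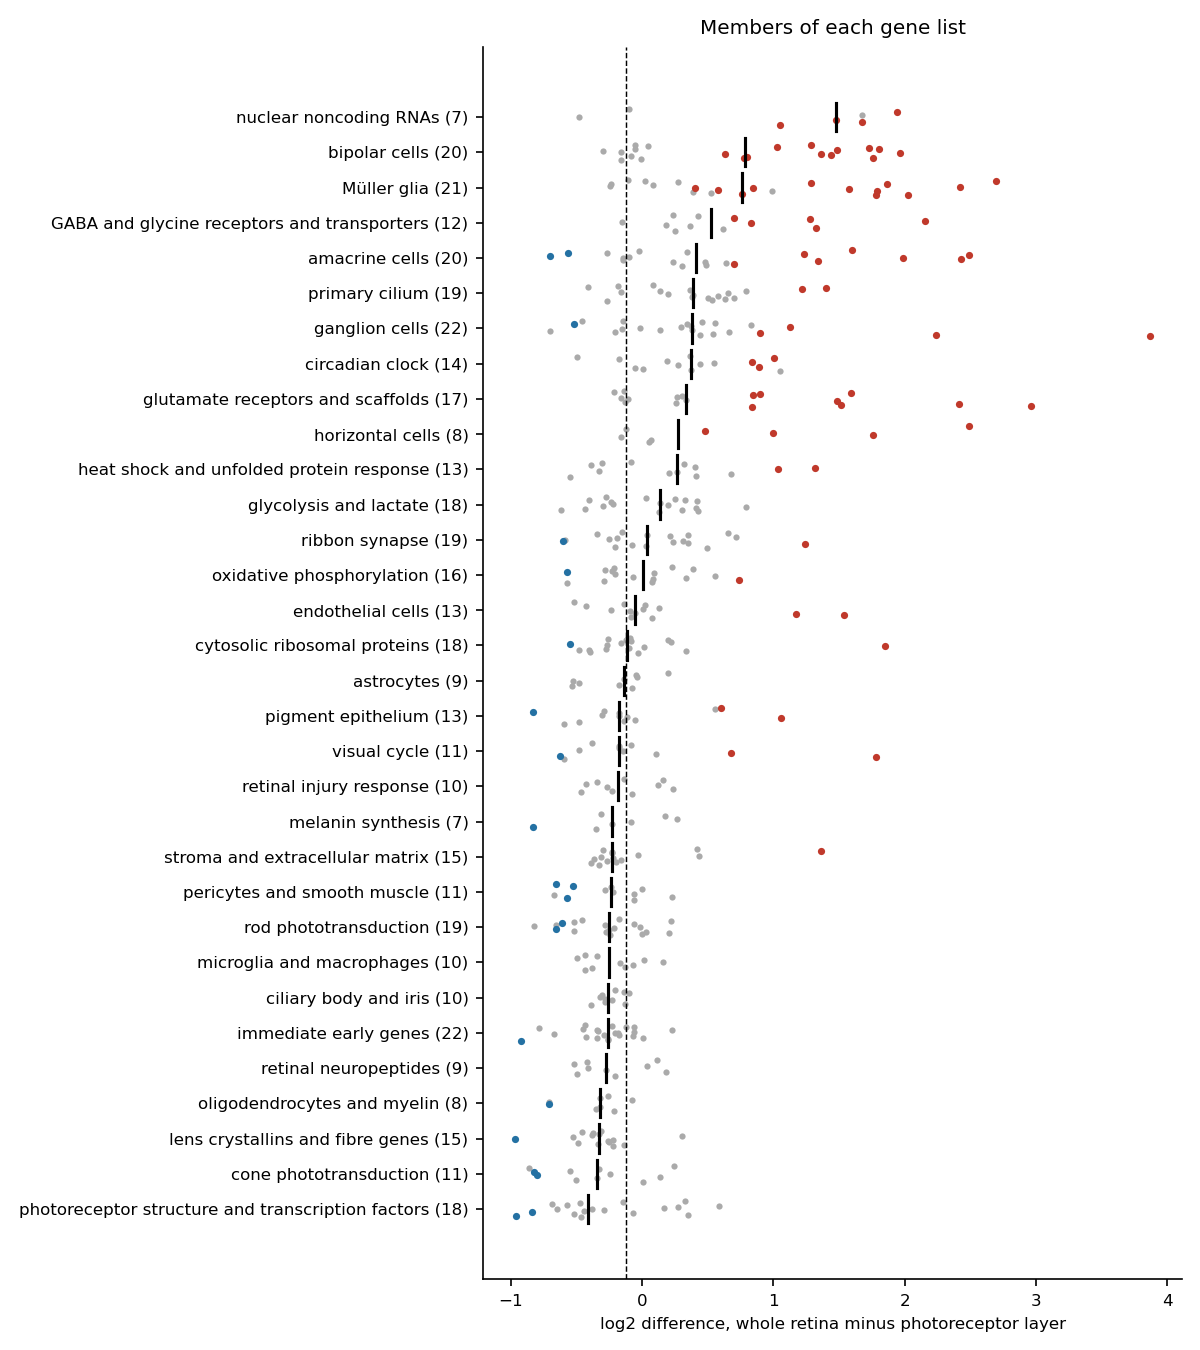
Difference between whole retina (WR) and photoreceptor layer (PR) on the log2 scale for every measured member of each gene list except red blood cells. Called genes are in red (higher) and blue (lower). List medians are black bars and the median of all genes (-0.13) is a dashed line. The bipolar and Müller lists hold 12 called genes each, all higher.

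Whole retina also holds vessels, immune cells and glia of the nerve fibre layer, and a dissection can carry pigment epithelium or lens. Of 13 endothelial genes 2 rose, beside 6.97% of all genes, and the list's median was -0.06 (0.02 without replicate 2 of light-adapted whole retina). Kdr, a receptor for vascular endothelial growth factor, was at 7.37, 7.66, 7.62 and 7.29 in whole retina, against 5.93, 6.06, 6.01 and 5.77 in the photoreceptor layer, and rose by 1.54 ± 0.32. Its relative Flt1 rose by 1.17 ± 0.21, while the endothelial adhesion gene Pecam1 was at 0.07, Cdh5 at -0.09 and Cldn5 at -0.23, none of them called. Of 11 pericyte and smooth muscle genes 3 fell, beside 3.44% of all genes, with a median of -0.24. They were Notch3 (-0.52), Cnn1 (-0.66) and Cspg4 (-0.57).

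None of the 10 microglia genes (median -0.26) and none of the 9 astrocyte genes (median -0.14) passed. With an array left out these medians were -0.38 to -0.13 and -0.24 to -0.07. Gfap, the filament of astrocytes, was at 4.81, 4.33, 4.96 and 4.67 in whole retina, against 5.07, 4.79, 4.98 and 4.23 in the photoreceptor layer, and overlapped. Of 8 oligodendrocyte genes 1 fell, Mobp by 0.71 ± 0.21, beside 3.44% of all genes. In the pigment epithelium list 2 of 13 genes rose, Trpm3 by 1.06 ± 0.26 and Sulf1 by 0.60 ± 0.17, beside 6.97% of all genes. The melanosome gene Pmel fell by 0.83 ± 0.20 and was the 1 lower gene of this list. The list's mean level was 5.54 ± 0.06 in whole retina and 5.62 ± 0.12 in the photoreceptor layer (SD, n = 4 each). Of 15 lens genes 1 fell, Cryga by 0.97 ± 0.27, beside 3.44% of all genes. The lens mean was 5.60 ± 0.16 in whole retina and 5.93 ± 0.07 in the photoreceptor layer. Neither of the 2 red blood cell genes and none of the 10 genes of ciliary body and iris passed. Rpe65 and Hba-a1 were not among the genes tested. Of the genes named here for vessels, glia and support tissue, Flt1 alone passed with each array left out in turn.

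Genes outside the lists were among those with the largest differences. Neurod4, a transcription factor of the NeuroD family, was at 6.31, 7.79, 7.04 and 7.39 in whole retina, against 3.00, 3.22, 3.34 and 3.52 in the photoreceptor layer. The tissues did not overlap, and it rose by 3.86 ± 0.44 (adjusted p = 0.000155). Cadps, which primes dense-core vesicles, was at 8.00, 9.01, 8.49 and 8.67 in whole retina, against 5.56, 5.30, 5.71 and 5.73 in the photoreceptor layer, and rose by 2.97 ± 0.37. The neuronal membrane glycoprotein gene Gpm6a rose by 2.96 ± 0.40, the receptor phosphatase gene Ptprd by 2.79 ± 0.30 and the matricellular gene Sparcl1 by 2.68 ± 0.26. Sparcl1 averaged 8.96 in the ganglion cell layer, above its mean of 7.97 in whole retina.

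The cytoskeletal gene Septin7 was 2.54 ± 0.34 higher and the SUMO-ligase gene Zmiz1 2.60 ± 0.31, although 1 of the 2 other probe sets of Zmiz1 had the opposite sign. Slc4a10, a bicarbonate transporter, and Frmd3 rose by 2.63 ± 0.51 and 2.58 ± 0.54, and both missed the threshold without replicate 2 of light-adapted whole retina (adjusted p = 0.0544 and 0.0762). Neurod4, Cadps, Gpm6a, Ptprd, Sparcl1, Septin7 and Zmiz1 passed in each fit with an array left out. So did 38 of the 104 called genes named by the rules given in the methods.

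The genes called higher in whole retina were then set against the layers. Of these 1050 genes 948 (90.3%) had a higher mean in whole retina than in each of the 4 layers, beside 24.7% of all genes tested. Their choice by the same whole retina arrays raises this share by itself. The median level of the 1050 genes was 6.78 in whole retina and 5.62 in the photoreceptor layer. It was 5.72 for the inner nuclear, 5.47 for the inner plexiform and 5.66 for the ganglion cell layer. Among the 3 inner layers, which stand on neither side of the comparison, the highest level lay in the inner nuclear layer for 449 genes (42.8%) and in the ganglion cell layer for 451 (43.0%). It lay in the inner plexiform layer for 150 (14.3%). Over all genes these shares were 31.6% for the inner nuclear, 27.7% for the ganglion cell and 40.7% for the inner plexiform layer. The genes called higher spanned a median of 51.6 kb on the genome in the RefSeq table, beside 19.0 kb for all genes tested, and the part of gene length in the result was not tested.

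**Figure D5:**
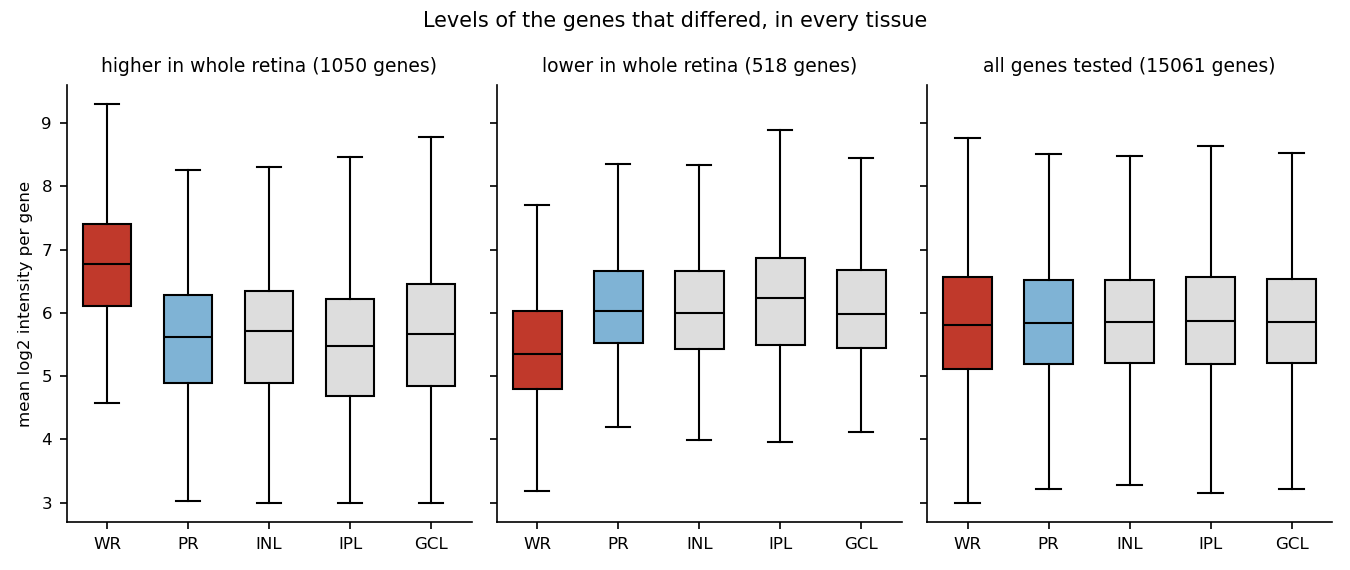
Log2 level in whole retina (WR), the photoreceptor layer (PR), the inner nuclear layer (INL), the inner plexiform layer (IPL) and the ganglion cell layer (GCL) of the 1050 genes called higher and the 518 called lower in whole retina. Boxes show median and quartiles over genes with whiskers to 1.5 times the interquartile range. Higher genes have their highest median in whole retina (6.78) and lower genes their lowest there (5.35).

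In 694 genes (4.61%) whole retina was above each of the 4 layers with all 4 comparisons past the threshold, and these comparisons share the whole retina arrays. Without replicate 2 of light-adapted whole retina there were 72 such genes and without replicate 1 there were 1039. Zdhhc17, a palmitoyltransferase gene, was at 8.40, 8.29, 8.74 and 8.25 in whole retina, against 5.55, 5.66, 5.61 and 5.90 in the photoreceptor layer. It averaged 5.97 for the inner nuclear, 4.56 for the inner plexiform and 5.06 for the ganglion cell layer. It rose by 2.74 ± 0.38 over the photoreceptor layer. Arpp19, a phosphatase inhibitor that acts in mitosis, was at 5.33, 6.74, 5.59 and 5.28 in whole retina, against 3.09, 3.05, 3.02 and 3.02 in the photoreceptor layer. Its averages lay close to the floor in the other dissected layers as well, with means of 3.24 for the inner nuclear, 3.36 for the inner plexiform and 3.31 for the ganglion cell layer. Arpp19 thus passed the filter, a log2 value over 5 on at least 2 arrays, only through the whole retina arrays. The size of its difference depends on the floor.

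The splicing factor gene Prpf39 rose over the photoreceptor layer by 2.13 ± 0.26 and the cyclin gene Ccnh, of the CDK-activating kinase, by 2.27 ± 0.40. Gm24463 rose by 2.34 ± 0.44. Prpf39, Ccnh, Gm24463, Zdhhc17 and Arpp19 passed against the photoreceptor layer with each array left out in turn. The Ras inhibitor gene Rasa1 (2.41 ± 0.46) missed narrowly without replicate 2 of light-adapted whole retina (adjusted p = 0.0502). The RNA-binding gene Rbm12b2 (2.34 ± 0.57) and Rif1, which guides DNA replication timing (2.05 ± 0.45), also missed without it. The remaining genes of this group named by the rule were 4930447C04Rik, at 2.54 ± 0.66, and Mir301.

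The genes lower in whole retina showed smaller differences, with a median of -0.67. Of the 518 genes 471 (90.9%) had a lower mean in whole retina than in each of the 4 layers, beside 48.8% of all genes tested. Their choice raises this share in the same way. Their median level was 5.35 in whole retina and 6.04 in the photoreceptor layer. It was 5.99 for the inner nuclear, 6.24 for the inner plexiform and 5.98 for the ganglion cell layer. The highest inner layer was the inner plexiform layer for 337 of them (65.1%), beside 40.7% of all genes tested. The lower genes spanned a median of 7.45 kb on the genome, beside 19.0 kb for all genes tested. In 319 genes (2.12%) whole retina was below each layer with all 4 comparisons past the threshold.

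Zfp385a, a zinc finger gene, was at 7.67, 7.30, 7.44 and 7.39 in whole retina, against 8.91, 8.81, 8.72 and 8.58 in the photoreceptor layer. It fell by 1.30 ± 0.13 (adjusted p = 4.77e-05), and its means of 7.55 in the inner nuclear and 7.31 in the ganglion cell layer lay near that of whole retina. R3hdml was at 4.83, 4.34, 5.14 and 4.82 in whole retina, against 5.66, 5.92, 5.85 and 5.96 in the photoreceptor layer, and fell by 1.07 ± 0.16. The mitochondrial import gene Tomm5 fell by 1.11 ± 0.26 and was called below every layer, but missed the threshold without replicate 2 of light-adapted whole retina (adjusted p = 0.105). Chemosensory receptor genes, which serve smell, taste and pheromone sensing, made up 34 of the 518 lower genes and 2 of the 1050 higher ones. Of 406 such genes tested 8.37% were lower, beside 3.44% of all genes, and their median level was 4.95 in whole retina and 5.34 in the photoreceptor layer. Olfr1382 and Vmn1r58 were below every layer, at -1.15 ± 0.28 and -1.12 ± 0.29.

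Of 141 miRNA genes tested 12 (8.51%) were lower in whole retina and 5 (3.55%) were higher, beside 3.44% lower and 6.97% higher over all genes. The 4 that the rules name are shown by the mature sequence, from RefSeq on GRCm38.p6, with the seed (bases 2 to 8) in capitals; a gene array does not separate a mature miRNA from its precursor or host transcript.
mmu-miR-200c-3p: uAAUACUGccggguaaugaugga
mmu-miR-184-3p: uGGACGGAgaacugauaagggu
mmu-miR-219a-5p: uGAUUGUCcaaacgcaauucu
mmu-miR-301a-3p: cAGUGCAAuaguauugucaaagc
They lie at chr6:124718324-124718346 on the minus strand (miR-200c), chr9:89802263-89802284 on the minus strand (miR-184), chr17:34025052-34025072 on the minus strand (miR-219a) and chr11:87113054-87113076 on the plus strand (miR-301a, within Ska2). No seed is shared among them.

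Mir200c, of the family known for its part in epithelial identity, was at 5.88, 5.07, 5.62 and 5.40 in whole retina, against 6.73, 6.36, 6.55 and 7.17 in the photoreceptor layer, and fell by 1.21 ± 0.23 (adjusted p = 0.00533). Mir219a-1, whose mature miRNA is known from oligodendrocytes, was at 5.20, 5.01, 5.35 and 5.14 in whole retina, against 6.39, 6.54, 6.21 and 6.18 in the photoreceptor layer, and fell by 1.15 ± 0.19. Mir184 fell by 1.16 ± 0.32 but missed the threshold without replicate 2 of light-adapted whole retina (adjusted p = 0.156). For none of the 3 did the tissues overlap. Mir301 was at 5.49, 4.98, 5.29 and 5.11 in whole retina, against 3.00, 3.15, 3.09 and 3.00 in the photoreceptor layer, and rose by 2.15 ± 0.25 (adjusted p = 0.000232). The inner nuclear, inner plexiform and ganglion cell layers averaged 3.07, 3.00 and 3.03, so whole retina alone stood clear of the floor. The filter kept genes with a log2 value over 5 on at least 2 arrays. Mir301 passed it only through the whole retina arrays, and the size of its difference depends on the floor. Mir301 did not stay past the threshold under every alternative tried.

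The tissues were also compared within each adaptation, with 2 arrays against 2. In light 80 genes (0.531%) passed, with 70 higher (0.465%) and 10 lower (0.0664%) in whole retina. In dark 58 (0.385%) passed, with 50 higher (0.332%) and 8 lower (0.0531%). Thy1 was 3.84 higher in light and 3.90 in dark, Zdhhc17 2.74 in both, and Trpm1 1.90 in light and 1.62 in dark. No gene passed the test of the dark difference minus the light difference in limma (0.0%), with 149 genes (0.989%) at an unadjusted p under 0.05, and no gene passed under any alternative. Chst10, a sulfotransferase gene, had the smallest p of this test together with Nlgn2, Mpped2, Anxa11 and Paip2. Chst10 was at 6.39, 5.93, 5.98 and 6.04 in whole retina, against 6.39, 6.42, 8.00 and 7.98 in the photoreceptor layer. Its difference was -0.25 in light and -1.99 in dark, and the high values were those of the dark-adapted photoreceptor layer. Nlgn2, an adhesion gene of inhibitory synapses, was at 7.16, 7.26, 7.33 and 7.29 in whole retina, against 7.54, 7.14, 8.91 and 9.10 in the photoreceptor layer, with the same arrays high. Paip2, which binds the poly(A)-binding protein, was at 7.09, 6.97, 8.06 and 8.11 in whole retina, against 5.78, 5.68, 7.94 and 7.98 in the photoreceptor layer. It was lower in light in both tissues, and its difference was 1.30 in light and 0.12 in dark. The difference was 0.57 in light and -0.64 in dark for Mpped2, and 0.15 in light and -1.35 in dark for Anxa11.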

How the data were processed

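Total RNA of 20 samples was measured on Affymetrix arrays. Per the submitters' processing notes the authors used GCRMA, whose version is not given in the sources used here. The deposited values are intensity values for 35557 probe sets, read as linear from their range. Of these, 21797 had 1 gene symbol, 1613 several and 12147 were not listed. Symbols were updated through Entrez IDs. Intensities under 8 were set to 8 (11.3 to 14.1% of an array) and log2 was taken. Genes with a log2 value over 5 on at least 2 arrays were kept, each by its brightest probe set.

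limma 3.58.1 in R 4.3.3 fitted a mean for each of 10 groups (10 residual degrees of freedom, moderated two-sided tests with an intensity trend, Benjamini-Hochberg over all genes, threshold 0.05), and the fit was tested on simulated data. The number of arrays limits the precision. Alternatives changed floor, filter, scaling, weights, block and arrays.

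Named were the 15 highest and 15 lowest called genes without overlap, up to 4 called genes per list by smallest p, the 10 genes most clearly above and the 5 below each layer, the 5 smallest p for dark minus light, and fixed markers; other list members were chosen after their values were seen. The members and lists were chosen with earlier results of these data known.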

Additional observations from a re-analysis of the deposited data

Results flagged for a closer look

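The mean level of each gene list was screened for 1 array lying far from the other 3 of its tissue, in 66 groups, of which 3 stood out, and chance flags about 1 in 20. The ganglion cell list was at 6.51 on replicate 2 of light-adapted whole retina, against 6.04 to 6.11 on the other whole retina arrays. The astrocyte list was at 5.53 on that same array, against 5.69 to 5.71 on the others. The oxidative phosphorylation list was at 6.96 on replicate 2 of the light-adapted photoreceptor layer, against 6.90 to 6.91 on the others of that tissue.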

How the results depend on the processing

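The counts in order are genes called in all, higher and lower in whole retina, in light, in dark, above each layer, list members called, and the share of higher genes highest in the inner nuclear layer; as reported they were 1568, 1050, 518, 80, 58, 694, 89 and 42.8%. With array quality weights they were 3359, 1811, 1548, 254, 1238, 1130, 140 and 39.3%. With only the 8 arrays of the comparison they were 2938, 1852, 1086, 986, 472, 141 list members and 38.9%. With the filter at a log2 value of 7 the counts were 710, 507, 203, 44 in light, 327 above each layer and 56 list members. A floor at 32 gave 336 lower, 249 in light and 130 in dark, and log2 of the intensity plus 16 gave 169 in light. Without a filter there were 23 in light, 21 in dark and 445 above each layer. A minimum difference of 1 left 629, with 603 higher and 26 lower, 349 above each layer and 49 list members. Without the arrays with Y-linked signal 1035 were called, 221 of them lower and 17 in light. Those arrays were also left out of the list counts, which gave 9 bipolar and 8 Müller genes higher. The remaining counts of these settings, and all counts with quantile normalisation, median centring, a mean over the probe sets of a gene or no intensity trend, lay within 1.5 times those reported. So did those without the 2 inner plexiform layer arrays of light-adapted mice, chosen after seeing the data, like the list counts.

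The labels share replicate numbers. Same-numbered arrays correlated by 0.0059 to 0.464 in their deviations, with every value positive but not all over 0.1. The reported fit did not take the numbers as pairs. Since every value was positive, pairing by number cannot be set aside. With the replicate block the counts were 2706, 1700, 1006, 974, 490 and 1206, with 39.0% of the higher genes highest in the inner nuclear layer. With the replicate block within adaptation they were 2577, 1657, 920, 860, 414 and 1181, with 39.2%. Leaving out each of the 8 arrays gave 204 to 2275 in all, 168 to 1450 higher, 36 to 825 lower, 1 to 490 in light, 4 to 61 in dark, 72 to 1039 above each layer, 23 to 103 list members and 39.0 to 51.8%. A group left with 1 array was assumed to vary like the others.

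Of the 104 named called genes 34 stayed past the threshold under every alternative tried in which they were tested. Without replicate 2 of light-adapted whole retina 39 were still called, and without the arrays with Y-linked signal 75. Intensities near the floor, and differences against them, are the least certain values, and the causes of these shifts were not tested.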

Other observations

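Among nuclear noncoding RNAs 4 of 7 genes were higher in whole retina, beside 6.97% of all genes, with a median of 1.48 (0.89 without replicate 2 of light-adapted whole retina). Meg3, an imprinted noncoding RNA, was at 8.31, 9.06, 8.40 and 8.50 in whole retina, against 6.76, 6.97, 6.62 and 7.22 in the photoreceptor layer, and rose by 1.68 ± 0.27 (adjusted p = 0.00251). Malat1, an abundant RNA of nuclear speckles, rose by 1.05 ± 0.30, Tug1 by 1.94 ± 0.38 and Rian by 1.48 ± 0.38. Xist was at 1.67 ± 0.99 and did not pass. Meg3 was the only one of them called without replicate 2 of light-adapted whole retina.

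Of 14 circadian clock genes 3 were higher, Hlf by 1.00 ± 0.21, Per3 by 0.89 ± 0.21 and Nr1d2 by 0.84 ± 0.23, with a list median of 0.37, beside 6.97% of all genes called higher. In the heat shock list 2 of 13 rose, beside the same 6.97%, the chaperone genes Dnaja1 by 1.32 ± 0.28 and Hsph1 by 1.03 ± 0.23. Among 22 immediate early genes 1 fell, Fos by 0.93 ± 0.20, beside 3.44% lower over all genes, with a median of -0.26. None of these passed without replicate 2 of light-adapted whole retina. Oxidative phosphorylation genes had a median of 0.00 (-0.12 to 0.04 with an array left out). Of 16 of them 1 was higher (Ndufs1, 0.74) and 1 lower (Cox4i1, -0.57). None of 18 glycolysis genes passed (median 0.13, and -0.01 to 0.28 with an array left out). Of 18 ribosomal protein genes Rpl30 rose by 1.85 ± 0.48 and Rplp1 fell by 0.55 ± 0.14. In the visual cycle list Rlbp1 and Rdh10 (0.68) rose and Rdh8 (-0.62) fell, with 11 genes measured. The calls of Ndufs1, Cox4i1, Rpl30, Rplp1, Rdh10 and Rdh8 also depended on replicate 2 of light-adapted whole retina. The counts of these lists also stand beside 6.97% higher and 3.44% lower over all genes.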
